A study of Mus musculus with 12 samples.

Results

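The genes described here are 10 of repressive systems other than DNA methylation: Ezh2, Ezh1, Eed, Suz12 and Jarid2 of Polycomb repressive complex PRC2, and Setdb1, Trim28, Ehmt1, Ehmt2 and Suv39h1 of the pathways that methylate histone H3 at lysine 9 (H3K9). They were taken by name from 35975 genes, and all 10 were among the 16178 genes with enough counts to be tested. The question they address is whether other repressive systems are expressed at a higher level when the DNA methyltransferases are lost. They were measured by RNA sequencing in 12 PGCLC cultures; PGCLCs are mouse cells made in vitro that resemble primordial germ cells, the founders of the germ line. All came from the embryonic stem cell line E14TG2a, grown in 2i with vitamin C. TKO is, from what is known of the study, a line with knockouts of Dnmt1, Dnmt3a and Dnmt3b. Cells were primed to epiblast-like cells (EpiLCs), then aggregated and exposed to LIF, EGF, SCF, BMP8 and BMP4 over 4 days. The groups, with 3 biological replicates each, were TKO primed for 40 h (TKO_40h), 48 h (TKO_48h) or 96 h (TKO_96h) and WT primed for 40 h (WT_40h). TKO_40h against WT_40h is thus the comparison at equal priming time, whereas in TKO_48h and TKO_96h against WT_40h genotype and priming time cannot be told apart. No separate TKO clones are named, and whether the RNA is that of sorted cells or of whole aggregates is not given in the labels.

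PRC2 places methyl groups on lysine 27 of histone H3 (H3K27) at developmental genes that rest on unmethylated CpG islands. Ezh2, or its paralogue Ezh1 with weaker activity, carries the catalytic domain, and needs Eed and Suz12 to work. H3K9 methylation marks retroelements, imprinted regions and pericentric repeats. Trim28 is recruited by KRAB zinc finger proteins and brings in Setdb1, the paired enzymes Ehmt1 and Ehmt2 add the lower H3K9 methylation states, and Suv39h1 acts at pericentric heterochromatin. In the mouse embryo, primordial germ cells lose H3K9 dimethylation and gain H3K27 trimethylation while their DNA methylation is erased.

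Each library held 6570180 to 9114128 estimated counts. The targeted genes were lower in every TKO library: in CPM (counts scaled to library size), Dnmt1 ranged over 115 to 130 in TKO_40h libraries, 64.9 to 121 in those of TKO_48h and 132 to 152 in those of TKO_96h, against 426 to 450 in WT_40h. All 7 germ cell markers searched for had counts in each group, with a summed level of 194 to 205, 261 to 269 and 151 to 168 CPM at the 3 priming times of TKO, against 198 to 235 CPM in WT_40h. Epiblast markers (3 genes) summed to 146 to 176, 98.3 to 138 and 51.4 to 58.5 CPM at the 3 priming times of TKO, against 109 to 129 in WT_40h. Endoderm markers (8 genes) summed to 75.5 to 84.3, 44.7 to 75.1 and 14.7 to 41.7 CPM in TKO, against 45.4 to 61.2 in WT_40h, and in TKO_96h Apoa1 was at 0. Neural markers (4 genes) summed to 53.0 to 82.8 CPM in TKO, with Neurog2 at 0 in TKO_40h and Olig2 in TKO_40h and TKO_96h, against 74.8 to 90.1 CPM in WT_40h with Neurog2 at 0, and endothelial markers (4 genes) to 68.2 to 88.9 CPM, against 66.6 to 88.1 CPM. TKO_48h replicate 1 stood apart from the other libraries on the second principal component and had the fewest genes with at least 10 counts, 13530. The share of counts from ribosomal RNA was 1.78 to 2.15% in TKO_48h and 0.907 to 1.63% in the other 9 libraries. In bulk RNA, fewer cells of a type and less RNA per cell cannot be told apart.

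DNA methylation acts at CpG dinucleotides, so the CpG content of the members' promoters is shown first, with the promoters of both catalytic subunits of PRC2 and the one richest in CpG, that of Suz12. Each is the stretch of 250 bases before the RefSeq transcription start (GRCm38.p6), written 5′ to 3′ in the sense of the gene, with every CpG in capitals. Ezh2 lies on the minus strand at chr6:47595031-47595280, Ezh1 on the minus strand at chr11:101226464-101226713 and Suz12 on the plus strand at chr11:79992856-79993105.
Ezh2: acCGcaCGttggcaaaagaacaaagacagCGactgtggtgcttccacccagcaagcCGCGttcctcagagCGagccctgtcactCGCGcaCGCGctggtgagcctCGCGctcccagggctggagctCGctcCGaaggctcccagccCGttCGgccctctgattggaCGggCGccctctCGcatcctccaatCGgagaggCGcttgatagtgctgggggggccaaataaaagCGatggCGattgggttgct
Ezh1: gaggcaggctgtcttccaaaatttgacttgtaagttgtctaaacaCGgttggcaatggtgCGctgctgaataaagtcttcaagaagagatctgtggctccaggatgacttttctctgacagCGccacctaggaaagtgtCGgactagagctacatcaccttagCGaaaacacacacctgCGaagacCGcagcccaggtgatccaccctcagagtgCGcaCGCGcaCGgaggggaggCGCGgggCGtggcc
Suz12: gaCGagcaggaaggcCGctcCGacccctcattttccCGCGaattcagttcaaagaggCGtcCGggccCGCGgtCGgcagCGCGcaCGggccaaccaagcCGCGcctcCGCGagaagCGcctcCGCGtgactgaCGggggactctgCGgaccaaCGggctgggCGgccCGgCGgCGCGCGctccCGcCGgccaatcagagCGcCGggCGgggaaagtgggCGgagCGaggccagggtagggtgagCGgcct
These windows hold 23 CpG in Ezh2, 14 in Ezh1 and 37 in Suz12. RefSeq gives 13 promoters for the 10 members, with 11 to 37 CpG (median 22), and each lies above the median of 6 CpG over 32851 mouse promoters of the same length. Jarid2, Ehmt2 and Suv39h1 have a pair of entries each: 23 and 22 CpG in Jarid2, 18 and 36 in Ehmt2, and 11 and 25 in Suv39h1. Sites for E2F factors, which are known to drive Ezh2 and Eed in dividing cells, were searched as the letters TTTCCCGC and TTTGGCGC on both strands. One of the 13 promoters, that of Suz12, held TTTCCCGC, which 0.895% of all promoters hold, and none held TTTGGCGC (0.417% of all). Methylation of these windows was not measured in the data used here.

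In GENCODE M21 (GRCm38), Ezh2 spans chr6:47530139-47595341, Ezh1 chr11:101191115-101226463, Eed chr7:89954654-89980983, Jarid2 chr13:44729474-44921643, Setdb1 chr3:95323525-95357202 and Trim28 chr7:12999114-13031035; Suz12 lies on chromosome 11, Ehmt1 on 2, Ehmt2 on 17 and Suv39h1 on X. All members were expressed in every library, at 186 or more estimated counts. Levels of different genes are compared per length, as TPM (transcript abundance corrected for length and depth) summed over the protein-coding transcripts of a gene and averaged over the 12 libraries. Trim28 was the most abundant at 166 TPM, followed by Jarid2 at 95.5 TPM, Ezh2 at 61.3 TPM, Ehmt1 at 45.3 TPM and Suz12 at 40.3 TPM. Below them came Ehmt2 at 21.6 TPM, Setdb1 at 14.8 TPM, Eed at 8.24 TPM, Ezh1 at 5.46 TPM and Suv39h1 at 5.25 TPM. Between the catalytic subunits of PRC2, Ezh2 exceeded Ezh1 per length by a factor of 10.5, 12.3 and 10.5 in the TKO_40h replicates, 10.5, 7.14 and 7.06 in TKO_48h, 16.9, 18.0 and 16.2 in TKO_96h, and 11.3, 10.2 and 11 in WT_40h. The ratio in TKO_96h lay above that of every other library. It rests on how the counts of each gene were split between transcripts. Within a gene, levels differed little: the highest CPM of the 12 libraries was 1.35 to 1.86 times the lowest in 9 members, and 3.74 times in Eed.

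**Figure D1:**
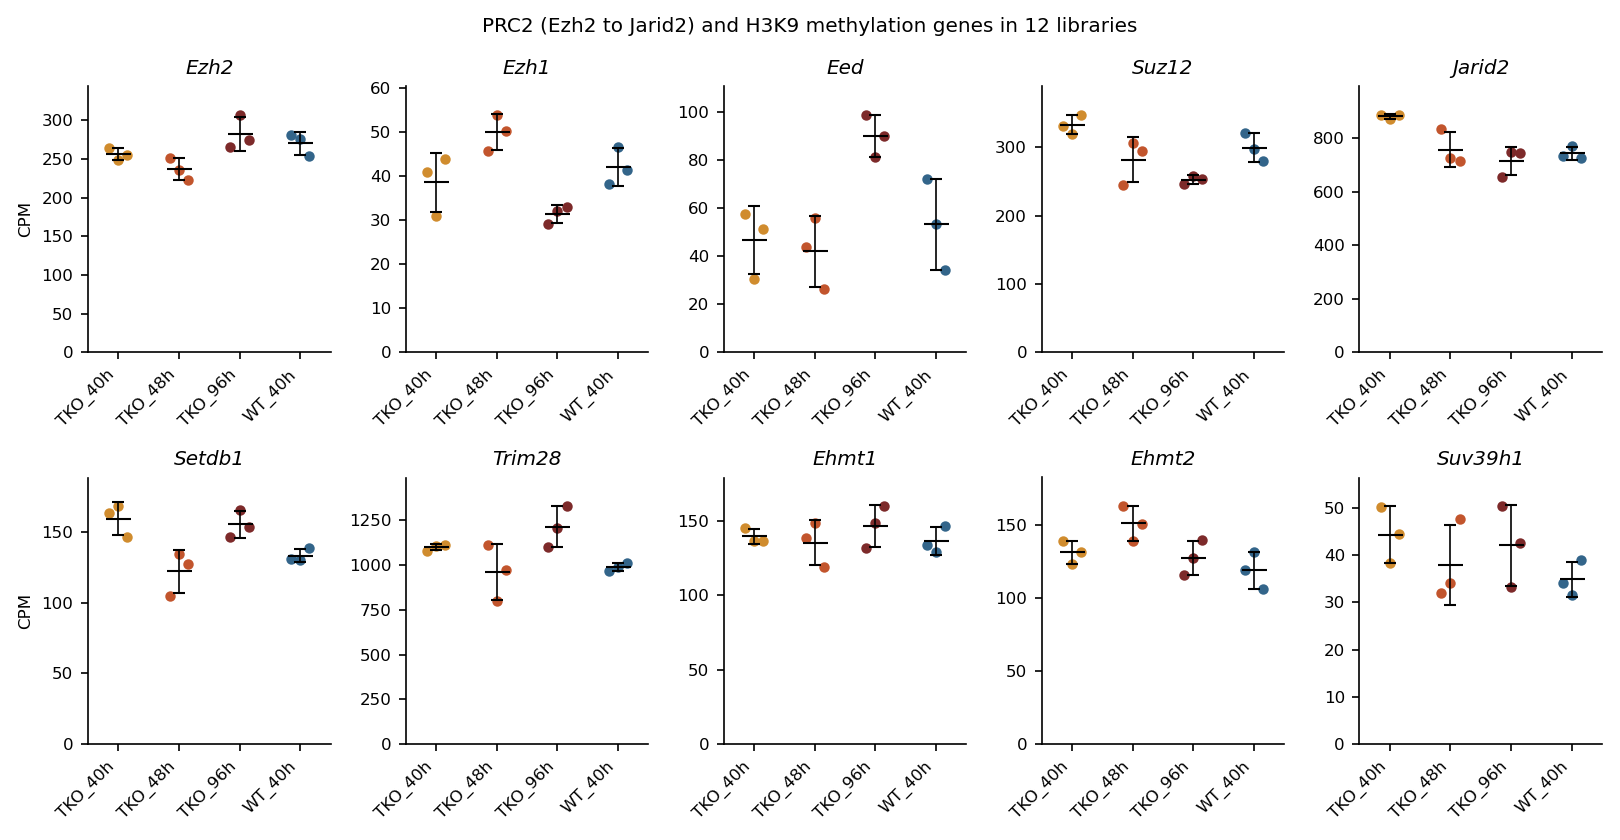
Level of each silencing gene (y axis, CPM from 0) in the 4 groups (x axis); points are libraries, bars mean and SD of 3 replicates. Eed and Ezh1 show the widest range between groups, with Eed at 81.0 to 98.7 CPM in TKO_96h and 26.4 to 71.9 CPM in the other 9 libraries.

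At equal priming time, no member passed the test between TKO_40h and WT_40h, and the largest differences were small upward ones in Jarid2, Setdb1 and Suv39h1. None of the 10 had an adjusted p below 0.05 in edgeR's quasi-likelihood test, where 3.1% of all genes tested did (1.62% higher and 1.48% lower), and 2 (Jarid2 and Setdb1) had an unadjusted p below 0.05. DESeq2 also called 0. The log2 fold changes ran from -0.20 to 0.35 with a median of 0.15, against a median of -0.00 over all genes tested, and 7 of the 10 were positive, against 49.9% of all genes. In the main edgeR fit, no upper bound of the 95% intervals passed 1.66-fold (Suv39h1) and no lower bound fell under 0.601-fold (Eed). These bounds do not cover the choice of settings. Over the 21 alternatives the log2 fold change of Suv39h1 was 0.25 to 0.77, against an upper bound of 0.73 in the main fit. None of them called Suv39h1.

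Among the PRC2 genes, Ezh2 had 264, 249 and 255 CPM in TKO_40h, against 281, 276 and 254 CPM in WT_40h, so that its log2 fold change was -0.08 ± 0.10 (SE, with an adjusted p of 0.79). The groups overlapped, and the 95% interval of the fold was 0.822 to 1.09. Suz12, the scaffold subunit, had 331, 320 and 348 CPM in TKO_40h, against 321, 297 and 280 CPM in WT_40h (log2 fold change 0.15 ± 0.10, adjusted p = 0.54). Jarid2, which binds PRC2 and aids its recruitment, had 888, 872 and 889 CPM in TKO_40h, against 734, 771 and 727 CPM in WT_40h. Every TKO_40h library lay above every WT_40h library, with a fold of 1.19 (95% interval 1.04 to 1.36) and an adjusted p of 0.19. Jarid2 was called when only the groups compared entered the fit (adjusted p = 0.0041) and under none of the other alternatives. Eed, which binds trimethylated H3K27 and stimulates the enzyme, had 57.5, 30.6 and 51.3 CPM in TKO_40h, against 71.9, 53.3 and 34.1 CPM in WT_40h, and Ezh1 had 40.8, 31 and 43.8 CPM, against 38.2, 46.6 and 41.3 CPM. Both genes overlapped between the groups, with adjusted p of 0.80 for Eed and 0.79 for Ezh1.

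Among the H3K9 genes, Setdb1 had 164, 169 and 147 CPM in TKO_40h, against 131, 130 and 139 CPM in WT_40h. Its replicates did not overlap, the fold was 1.20 (95% interval 1.02 to 1.40) and the adjusted p was 0.25. Trim28 had 1080, 1107 and 1114 CPM in TKO_40h, against 966, 990 and 1014 CPM in WT_40h, again without overlap, with a fold of 1.11 (95% interval 0.949 to 1.30) and an adjusted p of 0.57. Jarid2, Setdb1 and Trim28 were the 3 of 10 members whose replicates all lay higher in TKO_40h, and none had all replicates lower; over all genes tested the shares were 13.1% and 12.6%. Ehmt1 had 137 to 146 CPM in TKO_40h, against 129 to 147 CPM in WT_40h, and Ehmt2 had 124 to 139 CPM, against 106 to 132 CPM. Their log2 fold changes were 0.03 ± 0.11 and 0.14 ± 0.11, with intervals of the fold of 0.870 to 1.20 for Ehmt1 and 0.938 to 1.30 for Ehmt2. Suv39h1 had 50.3, 38.3 and 44.6 CPM in TKO_40h, against 34.1, 31.6 and 39.0 CPM in WT_40h, and its interval, 0.976 to 1.66, was the widest upward of the 10 (adjusted p = 0.38).

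**Figure D2:**
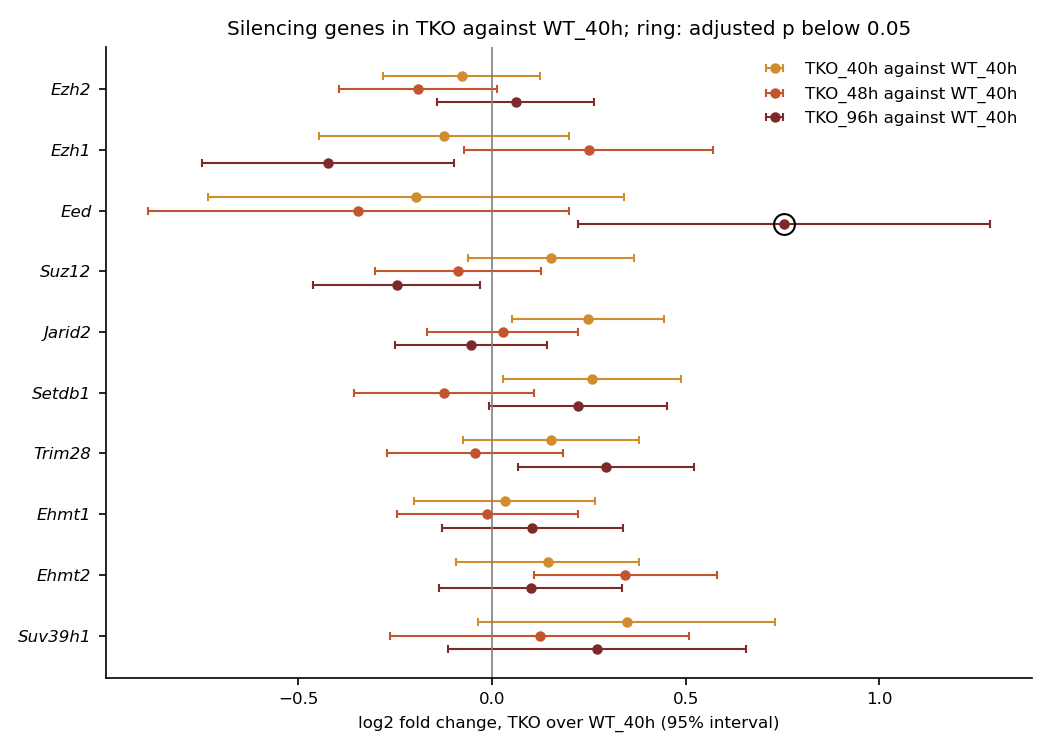
Log2 fold change of each member with its 95% interval (x axis) in TKO_40h, TKO_48h and TKO_96h, each against WT_40h; a ring marks an adjusted p below 0.05. Eed in TKO_96h, at 0.75, carries the only ring, and no interval of TKO_40h passes 0.73.

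With longer priming the comparison with WT_40h gave 0 called members of 10 in TKO_48h, where 5.66% of all genes were called (2.84% higher and 2.82% lower), and 1 higher in TKO_96h, where 19.2% were (9.1% higher and 10.1% lower). All these comparisons share the same 3 WT_40h libraries. In TKO_48h, 1 member, Ehmt2, had an unadjusted p below 0.05, and DESeq2 called it: it had 163, 139 and 151 CPM in TKO_48h, against 119, 132 and 106 CPM in WT_40h (log2 fold change 0.34 ± 0.11, adjusted p = 0.080). The median log2 fold change of the members was -0.03 in TKO_48h and 0.10 in TKO_96h, against -0.01 over all genes tested in both. The member that rose in TKO_96h was Eed, to 98.7, 81.0 and 89.8 CPM, against 71.9, 53.3 and 34.1 CPM in WT_40h, which is 0.75 ± 0.25 on the log2 scale (adjusted p = 0.043). This call ended under 8 of 21 alternatives, among them DESeq2, the robust fit and the fit on protein-coding transcripts, and without WT_40h replicate 2 or 3 or any one TKO_96h replicate. Trim28 had 1103, 1210 and 1331 CPM in TKO_96h, all above WT_40h, with an adjusted p of 0.065, and was called under 7 of the 21 alternatives. Ezh1 had 29.0, 32.1 and 32.8 CPM in TKO_96h, all below WT_40h (log2 fold change -0.42 ± 0.16, adjusted p = 0.064), and was called on protein-coding transcripts alone. Setdb1 had 147, 166 and 154 CPM in TKO_96h, all above WT_40h, with an adjusted p of 0.17. It was called on protein-coding transcripts alone (edgeR, adjusted p = 0.034). Counted by replicates without overlap, 1 member lay higher (Ehmt2) and 1 lower (Ezh2) in TKO_48h than in WT_40h, where 11.9% and 12.1% of all genes did. In TKO_96h, 3 lay higher (Eed, Setdb1 and Trim28) and 2 lower (Ezh1 and Suz12), where 17.6% and 19.4% of all genes did.

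Between the priming times of TKO, in comparisons that again share libraries, 6 members were called at least once: Setdb1, Eed, Ezh1, Trim28, Suz12 and Jarid2. Between TKO_48h and TKO_40h, 1 of 10 members was called, lower, where 5.49% of all genes were (2.57% higher and 2.92% lower). Setdb1 fell to 105, 134 and 128 CPM in TKO_48h, against 164, 169 and 147 CPM in TKO_40h (log2 fold change -0.38 ± 0.11, adjusted p = 0.049). Its call stood at the threshold and ended under 13 of 21 alternatives: the length offset described below, only the groups compared, protein-coding transcripts, and 10 of the 12 fits without 1 library, those that kept it being without TKO_48h replicate 2 or TKO_96h replicate 1. By replicates without overlap, 1 member lay higher (Ezh1) and 3 lower (Suz12, Jarid2 and Setdb1), where 12% of all genes did in each direction. Between TKO_96h and TKO_40h, 3 of 10 were called, where 12.1% of all genes were (4.94% higher and 7.2% lower): Eed rose (log2 fold change 0.95 ± 0.26, adjusted p = 0.018), and Suz12 and Jarid2 fell. The Eed call ended with DESeq2, the robust fit and protein-coding transcripts, and without TKO_40h replicate 2 or TKO_96h replicate 1. Suz12 had 246, 258 and 253 CPM in TKO_96h, against 331, 320 and 348 CPM in TKO_40h (log2 fold change -0.40 ± 0.10, adjusted p = 0.014), and every TKO_96h library lay below every TKO_40h library. Its call ended with an effective length offset, which corrects each gene for the length of the transcripts counted (adjusted p = 0.053), and without TKO_40h replicate 3. Jarid2 had 656, 749 and 744 CPM in TKO_96h, against 888, 872 and 889 CPM in TKO_40h (log2 fold change -0.30 ± 0.09, adjusted p = 0.040), a call that ended under 13 of the 21 alternatives, 10 of them fits without 1 library, where those without TKO_48h replicate 1 or 2 kept it. Without overlap, 2 members lay higher (Ezh2 and Eed) and 2 lower (Suz12 and Jarid2), against 15.2% and 16.9% of all genes.

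Between TKO_96h and TKO_48h, 4 of 10 members were called, 3 higher and 1 lower, where 19.5% of all genes were (8.82% higher and 10.7% lower). Without overlap, 3 members lay higher (Ezh2, Eed and Setdb1) and 1 lower (Ezh1), against 15.6% and 17.1% of all genes. Ezh1 fell to 29.0, 32.1 and 32.8 CPM in TKO_96h, against 45.7, 53.9 and 50.1 CPM in TKO_48h (log2 fold change -0.67 ± 0.16, adjusted p = 0.0045). Of the 21 alternatives the Ezh1 call ended under 1, the effective length offset, with a log2 fold change of -0.22 and an adjusted p of 0.59. Eed rose to the 3 values above, against 43.6, 55.6 and 26.4 CPM in TKO_48h (log2 fold change 1.10 ± 0.26, adjusted p = 0.0051), a call that ended with the robust fit and on protein-coding transcripts. Setdb1 had 147, 166 and 154 CPM in TKO_96h, against 105, 134 and 128 CPM in TKO_48h (log2 fold change 0.35 ± 0.11, adjusted p = 0.033). Trim28 had 1103, 1210 and 1331 CPM in TKO_96h, against 1110, 797 and 975 CPM in TKO_48h (log2 fold change 0.34 ± 0.11, adjusted p = 0.035). The Setdb1 call ended under 7 alternatives and the Trim28 call under 8; both ended without TKO_48h replicate 3, without TKO_96h replicate 2 or 3, and Setdb1's also without TKO_48h replicate 1 and Trim28's without TKO_48h replicate 2, WT_40h replicate 1 or 3 or TKO_40h replicate 3. The Trim28 replicates of TKO_96h and TKO_48h overlapped. Ezh2 had 265, 307 and 274 CPM in TKO_96h, against 252, 236 and 223 CPM in TKO_48h, with an adjusted p of 0.077 and calls under 3 alternatives. The share of ribosomal RNA differed between the same groups, at 1.24 to 1.63% in TKO_96h and 1.78 to 2.15% in TKO_48h, and so did the summed epiblast markers given above; their part in these results was not tested.

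When the 4 groups are put in order of mean CPM for each member, most neighbours overlapped. The exceptions were Eed and Setdb1, each higher in TKO_96h than in WT_40h as the next group below, Trim28, higher in TKO_40h than in WT_40h, and Jarid2, higher in TKO_40h than in TKO_48h. For Ezh2, Ezh1, Suz12, Ehmt1, Ehmt2 and Suv39h1 each pair of neighbours overlapped.

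Estimated counts by transcript bear on Eed, Ezh1, Setdb1, Ehmt2 and Suv39h1. In Suv39h1, protein-coding transcripts held 39.2 to 76.6% of the counts over the 12 libraries. Their mean share was 50.2% in WT_40h and 67.9% in TKO_40h. The retained-intron transcript Suv39h1-205 took 70.3, 38.8 and 27.7 counts in TKO_40h, against 41.7, 88.1 and 107 in WT_40h, and these groups overlapped. Protein-coding transcripts held 2.06 to 50.0% of the Eed counts, the lowest share of the 10 members, and the short retained-intron transcript Eed-203 (491 bases) held 41.5% on average. The coding transcript Eed-201 had 203, 3.16 and 190 estimated counts in TKO_40h, 91.4, 156 and 1.62 in TKO_48h, 295, 193 and 236 in TKO_96h, and 293, 143 and 2.85 in WT_40h. It was near 0 in 1 library of each of 3 groups, and these were the libraries with the lowest Eed level of their group. Eed-203 taken alone had 244, 227 and 276 counts in TKO_96h, 107, 198 and 95.4 in TKO_48h and 205, 143 and 162 in WT_40h. The level of Eed mRNA is therefore uncertain in these libraries.

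For Ezh1, the coding transcripts Ezh1-202 and Ezh1-203 share 19 of 21 exons and differ by 13 bases at one end and 1 base at the other. Ezh1-202 took 228, 233 and 273 counts in TKO_48h and 3.00 to 6.02 in each of the other 9 libraries, whereas Ezh1-203 took 0, 49.3 and 1.31 counts in TKO_48h and 130 to 284 elsewhere. The counts moved from one to the other in all 3 TKO_48h libraries, and the sum used for the gene contains both. Setdb1-204, a retained-intron transcript, held 19.2 to 26.7, 7.0 to 15.6 and 14.3 to 20.3% of the Setdb1 counts at 40, 48 and 96 h in TKO, against 15.8 to 28.7% in WT_40h. Of the 31-base words of Setdb1-201, 8.25% occur in other genes as well, chiefly in the predicted gene Gm4349, so that counts of these genes may not be fully separated; in the other members this share was at most 0.826%. Exons on the opposite strand overlap Ezh2, Eed, Suz12, Setdb1 and Suv39h1, by up to 767 bases in Suv39h1 (Gm14820). The libraries are stranded, but whether the counting used strand is not given in the sources used here.

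**Figure D3:**
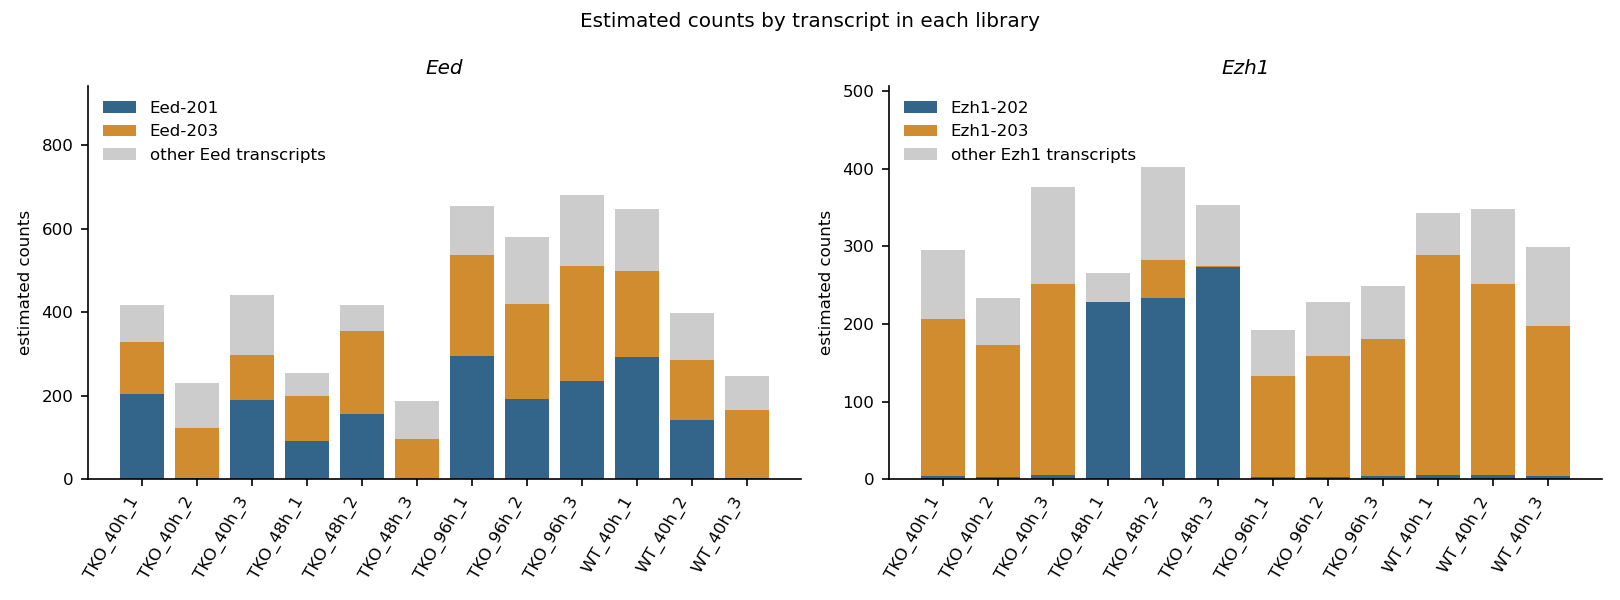
Estimated counts (y axis) of Eed and Ezh1 in each of the 12 libraries (x axis), stacked by transcript. Eed-201 is almost missing in TKO_40h replicate 2, TKO_48h replicate 3 and WT_40h replicate 3, and Ezh1-202 takes the place of Ezh1-203 in the 3 TKO_48h libraries.

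Ehmt2 is transcribed with or without an exon that adds 34 codons. This exon, number 10 of Ehmt2-204, lies on the plus strand at chr17:34905610-34905711 (GRCm38, 102 bases) and is shown because it separates Ehmt2-201 and Ehmt2-204 from Ehmt2-202 and Ehmt2-203.
Ehmt2 exon: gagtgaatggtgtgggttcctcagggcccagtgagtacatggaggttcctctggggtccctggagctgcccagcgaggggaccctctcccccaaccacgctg
Transcripts with the exon (Ehmt2-201 and Ehmt2-204) took 48.4, 45.3 and 29.8% of the counts of the 4 transcripts Ehmt2-201 to Ehmt2-204 in TKO_40h, 68.4, 39.1 and 85.8% in TKO_48h, 29.5, 34.2 and 50.0% in TKO_96h, and 43.3, 65.2 and 23.9% in WT_40h. Replicates of 1 group differed widely, and every TKO group overlapped with WT_40h.

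The rest of the Polycomb system changed in few genes between TKO_40h and WT_40h, where 1.62% of all genes tested were called higher and 1.48% lower. Of the 8 PRC2 accessory subunits tested, 1 rose and none fell, with a median log2 fold change of 0.04. It was Epop, a subunit that limits PRC2 activity in mouse stem cells, at 353, 367 and 351 CPM in TKO_40h, against 259, 245 and 258 CPM in WT_40h (log2 fold change 0.49 ± 0.11, adjusted p = 0.022). The Epop call ended with the effective length offset (adjusted p = 0.10) and in each of the 6 fits without 1 library of the 2 groups. Of 20 PRC1 subunits, 1 rose and none fell (median 0.07): Bcor, of a variant PRC1 complex, had 169, 160 and 159 CPM in TKO_40h, against 116, 117 and 109 CPM in WT_40h (log2 fold change 0.51 ± 0.11, adjusted p = 0.015; 0.67 with the length offset). Of the 6 fits without 1 library of these groups, the one without TKO_40h replicate 3 kept the Bcor call. In TKO_96h the PRC2 histone binder Rbbp4 rose to 305 ± 31.8 CPM, against 230 ± 8.75 CPM in WT_40h (SD, n = 3 each; log2 fold change 0.41 ± 0.11, adjusted p = 0.0095), and the offset ended the call (adjusted p = 0.25). Aebp2, a subunit of the same PRC2 variant as Jarid2, fell in TKO_48h to 138, 152 and 134 CPM, against 178, 186 and 190 CPM in WT_40h (log2 fold change -0.39 ± 0.10, adjusted p = 0.024), and that call ended under 7 alternatives, among them without any 1 WT_40h replicate and without TKO_48h replicate 1 or 3.

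Of 27 developmental regulators known as PRC2 targets, 18 had enough counts for the test. Of these, 1 rose in TKO_40h and none fell, with a median log2 fold change of 0.34. Over all genes tested, 1.62% were called higher and 1.48% lower. Hand1, a mesoderm and placenta factor, had 7.88, 8.91 and 13.7 CPM in TKO_40h, against 1.89, 1.33 and 2.76 CPM in WT_40h (log2 fold change 2.35 ± 0.43, adjusted p = 0.0047; 0.14 with the length offset). Hand1 is also 1 of 4 mesoderm markers, whose summed level was 8.43 to 14.1, 9.45 to 14.3 and 1.85 to 5.18 CPM at the 3 priming times of TKO, with T at 0 in TKO_96h, against 1.33 to 3.18 CPM in WT_40h. Trophoblast markers (4 genes) summed to 18.4 to 23.3, 9.52 to 13.4 and 8.96 to 13.6 CPM at the 3 priming times of TKO, against 7.23 to 14.7 CPM in WT_40h. The part of such cells in the results on Hand1 and Gata2 was not tested. In TKO_96h, Hand1 had 2.57, 4.76 and 1.85 CPM and overlapped with WT_40h, whereas Gata2, a blood and placenta factor, had 6.49, 15.5 and 23.1 CPM, against 4.90, 3.20 and 1.66 CPM in WT_40h (log2 fold change 2.19 ± 0.47, adjusted p = 0.0026).

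Around the H3K9 enzymes, the gene with the smallest adjusted p at 40 h was Cbx5, which encodes HP1 alpha, a reader of methylated H3K9. It fell to 213, 218 and 208 CPM in TKO_40h, against 359, 355 and 350 CPM in WT_40h (log2 fold change -0.74 ± 0.09, adjusted p = 0.00018). The call held under 20 of 21 alternatives and ended with the effective length offset (log2 fold change -0.53, adjusted p = 0.072). Cbx5 was also lower in TKO_48h, at 200, 232 and 229 CPM (log2 fold change -0.69 ± 0.09 against WT_40h, adjusted p = 0.00035; 0.056 with the offset), and had 302, 327 and 315 CPM in TKO_96h, a rise against TKO_40h of 0.56 ± 0.09 on the log2 scale (adjusted p = 0.00047). It was the single one of 10 HP1 and heterochromatin genes called in TKO_40h, where the median log2 fold change was 0.08 and 1.48% of all genes were called lower. No gene of 14 other H3K9 methyltransferases and partners was called in TKO_40h by edgeR, by DESeq2 or under any other alternative, 2 had an unadjusted p below 0.05, and the median log2 fold change was 0.03. The most abundant of these, Fam208a of the HUSH silencing complex, had 312, 314 and 314 CPM in TKO_40h, against 296, 302 and 313 CPM in WT_40h. Atf7ip, the partner that stabilises Setdb1, had 297, 304 and 287 CPM in TKO_40h, against 244, 296 and 276 CPM in WT_40h. Of 9 KRAB zinc finger genes none was called by edgeR or DESeq2 either, and 2, Zfp57 and Zfp568, had an unadjusted p below 0.05 and were called when only the groups compared entered the fit (median log2 fold change of the list -0.10). Zfp57, which keeps imprinted regions silent through Trim28, had 276, 263 and 283 CPM in TKO_40h, against 252, 207 and 209 CPM in WT_40h (log2 fold change 0.30, adjusted p = 0.16).

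Most heterochromatin genes differed between TKO_96h and TKO_48h. Of the 14 H3K9 genes 4 fell and 1 rose in TKO_48h against WT_40h (median log2 fold change -0.20), where 2.82% of all genes were called lower and 2.84% higher. Of the 10 heterochromatin genes 3 fell and none rose in that comparison (median -0.23), but 1 of these was called without TKO_48h replicate 1. Atf7ip fell to 193, 164 and 204 CPM in TKO_48h, against 244, 296 and 276 CPM in WT_40h (log2 fold change -0.54 ± 0.11, adjusted p = 0.0091), a call that ended without WT_40h replicate 2. In TKO_96h against TKO_48h, 9 of the 10 HP1 and heterochromatin genes rose and none fell, with a median log2 fold change of 0.51, against 8.82% of all genes called higher and a median of 0.01. The gene that was not called was Chaf1a, named after its values were seen. The count of 9 was 7 to 9 under the 21 alternatives and 8 without TKO_48h replicate 1. Against the other groups fewer of the 10 differed. In TKO_96h against WT_40h, 3 rose and none fell (median log2 fold change 0.21), where 9.1% of all genes were called higher. In TKO_96h against TKO_40h, 3 rose and none fell (median 0.20), where 4.94% of all genes were called higher. Daxx, a chaperone that loads histone H3.3 at repeats, had 126, 130 and 114 CPM in TKO_96h, against 67.2, 63.9 and 61.8 CPM in TKO_48h and 63.8, 64.5 and 50.9 CPM in WT_40h. Its log2 fold change was 0.94 ± 0.12 against TKO_48h (adjusted p = 1.3e-05) and 1.04 ± 0.12 against WT_40h (adjusted p = 3.7e-06), and both calls held under all 21 alternatives. Resf1, a Setdb1 partner at retroelements, had 343, 378 and 382 CPM in TKO_96h, against 214, 256 and 217 CPM in TKO_48h (log2 fold change 0.68 ± 0.10, adjusted p = 6.7e-05). Zfp57 had 326, 353 and 368 CPM in TKO_96h, against 170, 209 and 183 CPM in TKO_48h and 252, 207 and 209 CPM in WT_40h, with log2 fold changes of 0.90 ± 0.11 against TKO_48h (adjusted p = 9.0e-06) and 0.65 ± 0.11 against WT_40h (adjusted p = 0.0003). Atf7ip had 293, 360 and 367 CPM in TKO_96h, against 193, 164 and 204 CPM in TKO_48h, without overlap (log2 fold change 0.86 ± 0.11, adjusted p = 2.5e-05). Zfp644, a partner of Ehmt1 and Ehmt2, fell in TKO_96h, with 90.4, 87.2 and 92.1 CPM in TKO_96h, against 131, 123 and 135 CPM in WT_40h (log2 fold change -0.53 ± 0.11, adjusted p = 0.0016; 0.13 with the length offset).

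**Figure D4:**
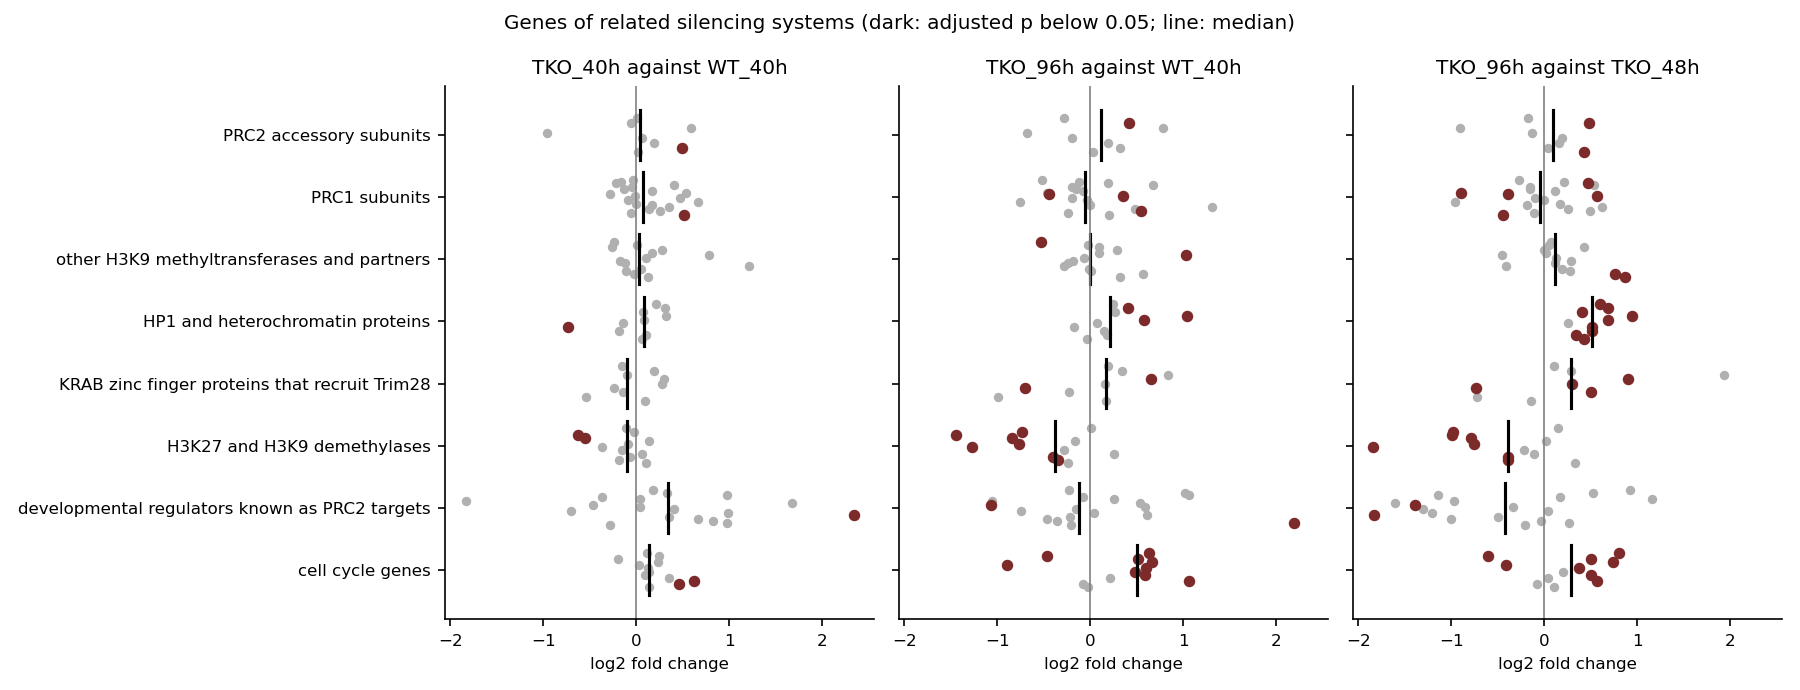
Log2 fold changes (x axis) of the tested genes of 8 lists (y axis) in TKO_40h against WT_40h, TKO_96h against WT_40h and TKO_96h against TKO_48h; dark points have an adjusted p below 0.05, and black lines are list medians. In the right panel 9 of 10 heterochromatin genes are dark and positive, and 7 of 12 demethylase genes are dark and negative. Over all genes tested, 8.82% were called higher and 10.7% lower in that comparison.

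Several enzymes that remove methyl groups from H3K27 and H3K9 fell in TKO_40h or TKO_96h. Of 12 tested, 2 fell and none rose in TKO_40h (median log2 fold change -0.10), where 1.48% of all genes were called lower. In TKO_48h against WT_40h, 1 fell and 1 rose (median -0.03), where 2.82% and 2.84% of all genes did. In TKO_96h against WT_40h, 7 fell and none rose (median -0.38), where 10.1% of all genes were called lower. In TKO_96h against TKO_48h, 7 fell and none rose (median -0.39), where 10.7% of all genes were called lower. Kdm6b, an H3K27 demethylase, had 153, 143 and 162 CPM in TKO_40h, 215, 219 and 216 CPM in TKO_48h, and 109, 125 and 142 CPM in TKO_96h, against 226, 225 and 221 CPM in WT_40h. It lay below WT_40h at all 3 priming times, least at 48 h (log2 fold change -0.05, adjusted p = 0.85), with log2 fold changes against WT_40h of -0.55 ± 0.10 at 40 h (adjusted p = 0.0061) and -0.84 ± 0.11 at 96 h (adjusted p = 1.6e-05). Both Kdm6b calls ended with the effective length offset alone of the 21 alternatives, with adjusted p of 0.50 at 40 h and 0.11 at 96 h. Kdm7a, which acts on H3K9 and H3K27, had 84.2, 94.1 and 105 CPM in TKO_40h and 56.5, 50.1 and 54.5 CPM in TKO_96h, against 145, 151 and 143 CPM in WT_40h. Its log2 fold change was -0.63 ± 0.14 at 40 h (adjusted p = 0.018; 0.35 with the offset) and -1.45 ± 0.15 at 96 h (adjusted p = 9.8e-07). The Kdm7a call at 40 h ended in 5 of the 6 fits without 1 library of these groups, TKO_40h replicate 3 being the exception, and that at 96 h held under all 21 alternatives. Kdm4b, an H3K9 demethylase, had 30.5, 32.1 and 22 CPM in TKO_96h, against 65.2, 75 and 64.3 CPM in WT_40h (log2 fold change -1.28 ± 0.18, adjusted p = 5.0e-05), also called under all 21. In TKO_48h Kdm4b had 108, 103 and 92.6 CPM, all above WT_40h. At 40 h it had 48.8, 40.4 and 69.4 CPM in TKO, overlapping with WT_40h. Over the alternatives, the count of 7 in TKO_96h against WT_40h ranged from 4 to 7, and that of 7 against TKO_48h from 5 to 9.

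**Figure D5:**
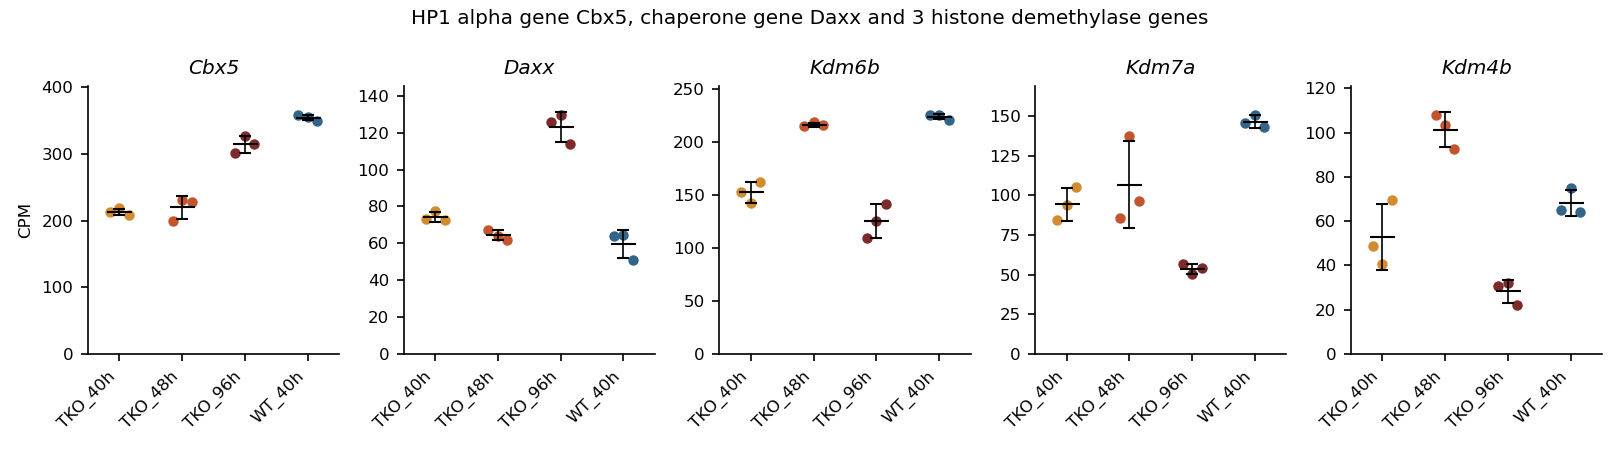
Levels (y axis, CPM from 0) of Cbx5, Daxx, Kdm6b, Kdm7a and Kdm4b in the 4 groups (x axis); points are libraries, bars mean and SD of 3 replicates. Cbx5 is near 213 CPM in TKO_40h and 355 CPM in WT_40h, and Daxx stands apart in TKO_96h at 123 CPM.

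Cell cycle genes differed as well, most in the comparisons with TKO_96h. Of 12, 2 rose and none fell in TKO_40h (median log2 fold change 0.14), where 1.62% of all genes were called higher and 1.48% lower. In TKO_96h against WT_40h, 7 rose and 2 fell (median 0.50), where 9.1% of all genes were called higher and 10.1% lower. Against TKO_40h, 7 rose and 3 fell in TKO_96h (median 0.39), where 4.94% and 7.2% of all genes did. Against TKO_48h, 6 rose and 2 fell in TKO_96h (median 0.29), where 8.82% and 10.7% of all genes did. Ccne1, the cyclin of S phase entry, had 223, 195 and 191 CPM in TKO_96h and 153, 148 and 145 CPM in TKO_40h, both called higher, against 101, 96.9 and 93.3 CPM in WT_40h. Ccnb1 had 291, 299 and 303 CPM in TKO_40h and 208, 197 and 209 CPM in TKO_96h, against 225, 213 and 212 CPM in WT_40h. Mki67, a marker of dividing cells, had 362, 477 and 497 CPM in TKO_96h, against 848, 811 and 823 CPM in WT_40h (log2 fold change -0.89 ± 0.11, adjusted p = 9.6e-06). The part of the cell cycle in the levels of the silencing genes was not tested.

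By likeness of profile, measured as the root mean square difference of centred log2 CPM over the 12 libraries among 15112 other protein-coding genes, the closest to Ezh2 were Usp37 (0.049), Usp7 (0.052) and Supt16 (0.061), against 0.116 for the variation of Ezh2 itself. The closest to Setdb1 were Glyr1 (0.080), Bclaf1 (0.090) and Mier1 (0.093), against 0.186 for Setdb1 itself.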

How the data were processed

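RNA was extracted from 12 PGCLC cultures and, per the labels' protocols, made into stranded total RNA libraries (SMARTer Pico Input), so that RNA without a poly(A) tail is counted. Trim Galore 0.6.2, kallisto and the build GRCm38 (mm10) are named in the submitters' processing notes; the transcript set is not given in the sources used here. The authors deposited estimated counts for each transcript, not scaled to depth, and TPM, which are scaled to effective length and depth.

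Of 119414 listed transcripts, 116728 (97.8%) were matched to GENCODE M21. Gene counts are rounded sums of these estimated counts. Genes were kept with filterByExpr (minimum count 10, minimum total 15), and edgeR 4.0.16 tested 16178 genes with TMM scaling (factors 0.927 to 1.063), 1 mean per group over all 12 libraries and a two-sided quasi-likelihood F-test, adjusted by Benjamini-Hochberg over all genes and called below 0.05. Standard errors were derived from the log2 fold change and F. P-values set the difference between groups against the spread between replicates, estimated over all 12 libraries. They do not cover differences between TKO clones. The procedure was run on simulated counts with known changes. These were larger than any change of the members between TKO_40h and WT_40h, so the power for such small changes was not tested. TPM are compared between genes, and between libraries only as the ratio of Ezh2 to Ezh1.

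The 10 members, the 8 lists of related genes (114 genes) and the markers were chosen with earlier results of these data known. Genes of the lists are named by a rule: up to 4 called in TKO_40h against WT_40h by adjusted p, or else the 2 of highest CPM, and the 2 of smallest adjusted p elsewhere. Alternatives were DESeq2 1.42.0, RLE size factors, no filter, a replicate block, an effective length offset weighted by TPM, a robust fit, only the groups compared, protein-coding genes or transcripts alone, and each of 12 libraries left out. R 4.3.3 and Python 3.11.15 were used.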

Additional observations from a re-analysis of the deposited data

How the results depend on the processing

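Over 9 alternative settings and 12 fits without 1 library each, no called gene of the members or lists changed direction. The number of members called became 1 in TKO_40h against WT_40h with only the groups compared, and 1 in TKO_48h against WT_40h with DESeq2 (0 to 1 without 1 library). In TKO_96h against WT_40h it became 2 with only the groups compared, protein-coding genes alone or protein-coding transcripts alone, and was 0 to 2 without 1 library. The genes called there also changed. On protein-coding transcripts the 2 were Ezh1, lower, and Setdb1, higher, and Eed was lost. With DESeq2 and with the robust fit the 1 called was Trim28 in place of Eed. In TKO_48h against TKO_40h the number of members called became 0 with the effective length offset, only the groups compared or protein-coding transcripts alone, and was 0 to 1 without 1 library. In TKO_96h against TKO_40h it became 1 with the length offset or protein-coding transcripts alone (1 to 3 without 1 library). In TKO_96h against TKO_48h it became 2 with the length offset, only the groups compared or protein-coding transcripts alone (2 to 4 without 1 library). It became 5 in that comparison with DESeq2 or protein-coding genes alone, where Ezh2 was called as well. Over all genes, 501 were called in TKO_40h against WT_40h, 785 with DESeq2, 787 without the filter, 75 with the length offset, 1279 with only the groups compared, 317 on protein-coding transcripts and 181 to 667 without 1 library. In TKO_48h against WT_40h, 916 were called, 238 with the offset, 586 with only the groups compared, 509 on protein-coding transcripts and 396 to 1540 without 1 library. In TKO_48h against TKO_40h, 888 were called, 203 with the offset, 449 on protein-coding transcripts and 324 to 1107 without 1 library. The offset gave 1466 in place of 3099 in TKO_96h against WT_40h, 829 in place of 1965 against TKO_40h (1210 to 2270 without 1 library) and 1639 in place of 3157 against TKO_48h. The offset rests on how kallisto split counts between transcripts, and the cause of these losses was not tested. With a replicate block the numbers were 520, 1000 and 3145 for TKO_40h, TKO_48h and TKO_96h against WT_40h, 903 and 2022 for TKO_48h and TKO_96h against TKO_40h and 3175 for TKO_96h against TKO_48h, and the counts of members stayed at 0, 0, 1, 1, 3 and 4. Libraries of the same number deviated from their group means with correlations of -0.036 to 0.123 over 18 pairs, so the numbers were not taken to pair the samples. With 3 replicates a group, the folds of 1.19 for Jarid2 and 1.20 for Setdb1 in TKO_40h were not called although their intervals excluded 1.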
